A study of Mus musculus with 4 samples.

Results

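The core subunits of Polycomb repressive complex 2 (PRC2) and of the BAF chromatin remodelling complex were followed through the differentiation of C2C12 myoblasts and after hnRNPL knockdown. The group holds 10 genes, 4 of PRC2 (Ezh1, Ezh2, Eed and Suz12) and 6 of BAF (Smarca2, Smarca4, Smarcd1, Smarcd2, Smarcd3 and Smarcc1). They were taken by exact symbol from the 25072 gene symbols in the deposited tables, and all 10 were listed in every library. C2C12 is an established mouse myoblast line that leaves the cell cycle and fuses into myotubes in low-serum differentiation medium (DM). Total RNA depleted of rRNA was sequenced strand-specifically from proliferating myoblasts (MB, DM -24 h) and from myotubes (MT, DM 72 h by the labels, whereas a legend in the study gives an earlier time for MT RNA-seq). PolyA RNA was sequenced from MT at DM 48 h that had been transfected with an siRNA against hnRNPL (si-hnRNPL) or with a negative control siRNA (si-NC). The labels name no changed allele and no drug for any of the 4 libraries, and the knockdown libraries share the transfection. Each condition is 1 library, so no test or p-value was possible, and every error below is the 95% interval that Cufflinks gives for an FPKM within a library. FPKM counts fragments relative to transcript length and to the fragments of the library, so levels of different genes can be set side by side within a library.

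PRC2 places methyl groups on H3K27, a histone mark of silenced genes. Ezh2 and its paralog Ezh1 are the alternative catalytic subunits, Eed binds the methylated histone tail, and Suz12 is the scaffold that holds the enzyme together. BAF uses ATP to slide or evict nucleosomes and opens regulatory DNA. Smarca4 (BRG1) and Smarca2 (BRM) are its alternative ATPases, Smarcd1, Smarcd2 and Smarcd3 (BAF60a, BAF60b and BAF60c) are alternative subunits that connect the complex to transcription factors, and Smarcc1 (BAF155) is a core scaffold. In muscle, Ezh2 is known for keeping muscle genes silent in myoblasts, and BAF60c for working with MyoD to bring the remodeller to muscle promoters.

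The annotated promoters of the members that differed most between MB and MT, or that were higher in MT, are shown because these genes carry the paralog changes described below. Promoters of all 10 members were found in the RefSeq table of GRCm38.p6, each running from 250 bases before the annotated start to 50 bases after it on the strand of the gene. Capitals mark TTTNGCGC, a form of the E2F site, in Ezh2, and matches to CANNTG, the E-box bound by MyoD and its relatives, in the other genes. The windows are chr6:47594981-47595280 on the minus strand for Ezh2, chr11:101226414-101226713 on the minus strand for Ezh1, chr19:26604910-26605209 on the plus strand for Smarca2 and chr5:24601953-24602252 on the minus strand for Smarcd3.
Ezh2: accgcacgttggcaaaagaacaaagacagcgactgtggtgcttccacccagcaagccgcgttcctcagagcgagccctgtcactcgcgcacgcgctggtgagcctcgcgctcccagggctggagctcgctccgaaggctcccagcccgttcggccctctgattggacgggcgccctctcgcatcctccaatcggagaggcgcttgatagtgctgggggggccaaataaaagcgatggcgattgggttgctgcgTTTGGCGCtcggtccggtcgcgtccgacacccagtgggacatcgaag
Ezh1: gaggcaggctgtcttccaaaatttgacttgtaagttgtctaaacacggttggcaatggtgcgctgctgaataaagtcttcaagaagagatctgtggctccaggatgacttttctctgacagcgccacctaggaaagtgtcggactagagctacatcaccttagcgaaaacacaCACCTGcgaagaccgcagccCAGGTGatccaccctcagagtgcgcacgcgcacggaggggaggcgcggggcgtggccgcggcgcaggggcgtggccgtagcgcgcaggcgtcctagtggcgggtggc
Smarca2: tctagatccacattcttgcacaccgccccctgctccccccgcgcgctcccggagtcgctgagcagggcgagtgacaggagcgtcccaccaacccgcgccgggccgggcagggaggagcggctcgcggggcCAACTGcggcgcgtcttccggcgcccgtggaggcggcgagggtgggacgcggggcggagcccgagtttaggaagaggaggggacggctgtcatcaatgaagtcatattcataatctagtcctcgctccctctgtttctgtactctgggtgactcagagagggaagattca
Smarcd3: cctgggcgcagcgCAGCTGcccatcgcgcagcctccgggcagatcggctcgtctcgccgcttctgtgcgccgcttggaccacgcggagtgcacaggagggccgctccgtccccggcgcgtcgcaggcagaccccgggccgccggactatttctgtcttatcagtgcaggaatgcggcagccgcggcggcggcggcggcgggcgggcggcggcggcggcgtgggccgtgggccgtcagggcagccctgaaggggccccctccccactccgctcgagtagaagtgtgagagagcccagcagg
Both strands were searched. TTTNGCGC was matched in 1.38% of the 32851 promoters in the table and, among the members, in that of Ezh2 only, where its first base lies 3 bases past the start. The general E-box was matched in 8 of the 10 members and in 72.3% of all promoters, so a match to it is common. Of its specific forms, CAGGTG was matched in Ezh1 and Smarcd2 and in 20.2% of all promoters, and CAGCTG in Smarcd1 and Smarcd3 and in 16.3% of all promoters. The pair in Ezh1, at -77 and -57 from the start, is CAGGTG read on the opposite strand at -77 and on the strand of the gene at -57, and the match in Smarca2 at -120 is of neither form. CCAAT was matched in Eed, Ezh2 and Suz12 (37.4% of all promoters), 3 times in Ezh2, while GGGCGG, the GC box, was matched in 7 members (35.7% of all promoters) and not in Eed, Ezh1 or Ezh2. A match describes letters in the window and was not tested as a binding site. Whether any of these motifs bears on the changes between MB and MT was not tested.

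In the files the genes lie, on mm9, at chr11:101052429-101087777 for Ezh1, chr6:47480273-47545029 for Ezh2, chr7:97103164-97129486 for Eed and chr11:79806608-79847625 for Suz12. The BAF genes lie at chr19:26679650-26852811 for Smarca2, chr9:21420613-21508674 for Smarca4, chr15:99532718-99544426 for Smarcd1, chr11:106124485-106134286 for Smarcd2, chr5:24098440-24107820 for Smarcd3 and chr9:110034528-110142682 for Smarcc1. Each value is given per gene, so isoforms were not separated. GENCODE vM1 lists from 1 transcript for Smarcd1 to 13 for Ezh2. Its gene bounds differ from those above for some members, Ezh2 among them, so the transcripts behind each value may be others.

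All members were above 4 FPKM in every library. In MB their FPKM ran from 4.15 for Smarca2, above 18.5% of the named genes at 1 FPKM or more, to 39.5 for Smarca4, above 80.6% of them, in MT from 6.55 for Smarcd1 to 35.6 for Smarcd3, in si-NC from 8.52 for Smarca2 to 33.2 for Smarca4, and in si-hnRNPL from 9.94 for Smarca2 to 31.0 for Smarca4. The interval of a member corresponds to at least 394 effective fragments, the lowest being Smarca2 in si-hnRNPL, and to 15079 at most, for Smarca4 in MB. Over all entries the intervals imply 59960176 fragments in MB, 54442423 in MT, 21341051 in the si-NC library and 14592480 in the si-hnRNPL library, and the total RNA libraries therefore give the tighter values.

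**Figure D1:**
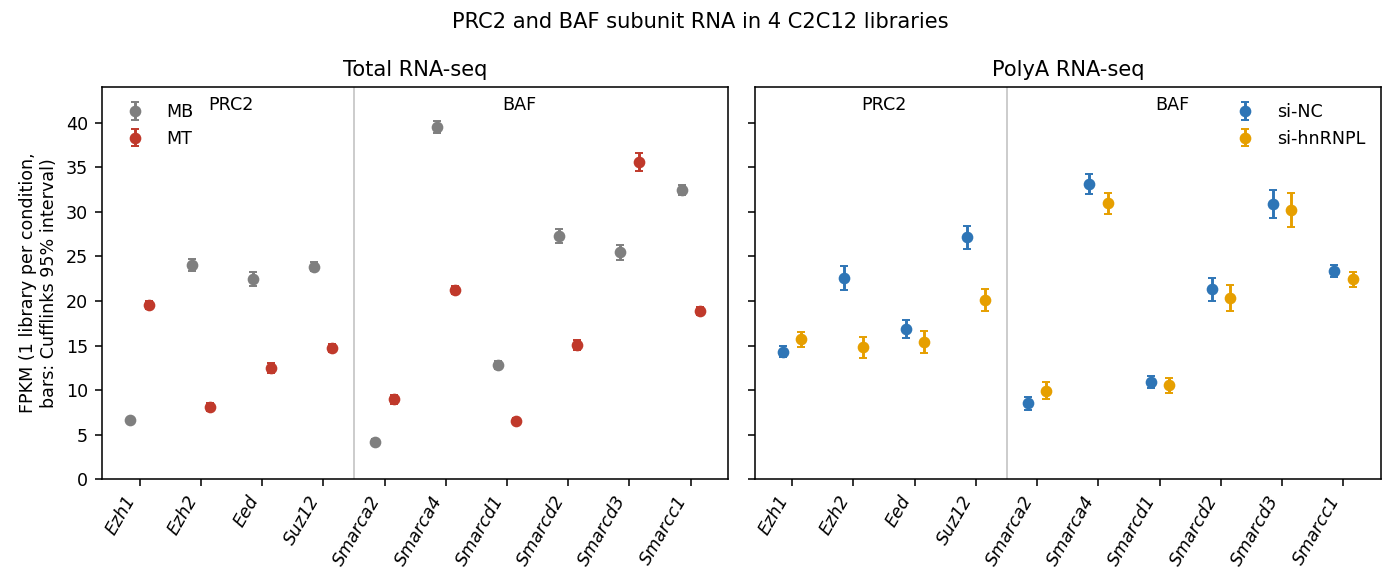
FPKM of the 10 members (y axis, linear) in the MB and MT total RNA libraries (left) and in the si-NC and si-hnRNPL polyA libraries (right), with bars for the Cufflinks 95% interval. Between MB and MT no member's intervals overlap, as for 86.3% of all genes tested, whereas between si-NC and si-hnRNPL they are separate for Ezh2 and Suz12 only, where 33.8% of all genes are separate.

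The order of the members changed between MB and MT. In MB the order of FPKM was Smarca4, Smarcc1, Smarcd2, Smarcd3, Ezh2, Suz12, Eed, Smarcd1, Ezh1 and Smarca2, where neighbours overlapped in their intervals for Smarcd3 with Ezh2 and for Ezh2 with Suz12. In MT it was Smarcd3, Smarca4, Ezh1, Smarcc1, Smarcd2, Suz12, Eed, Smarca2, Ezh2 and Smarcd1, with overlaps for Ezh1 with Smarcc1, Smarcd2 with Suz12 and Smarca2 with Ezh2. Ezh1 thus stood above only Smarca2 in MB and below only Smarcd3 and Smarca4 in MT, whereas Ezh2 stood in the middle of the order in MB and above only Smarcd1 in MT. In si-NC the order was Smarca4, Smarcd3, Suz12, Smarcc1, Ezh2, Smarcd2, Eed, Ezh1, Smarcd1 and Smarca2, where Smarca4 with Smarcd3, Smarcc1 with Ezh2 and Ezh2 with Smarcd2 overlapped. In si-hnRNPL it was Smarca4, Smarcd3, Smarcc1, Smarcd2, Suz12, Ezh1, Eed, Ezh2, Smarcd1 and Smarca2, and 6 of the neighbouring pairs overlapped.

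The first comparison, MT over MB, asks how the subunits change when myoblasts become myotubes. Of the 10 members, 2 were higher past the fold threshold in MT (Ezh1 and Smarca2), 7 were lower (Ezh2, Eed, Suz12, Smarca4, Smarcd1, Smarcd2 and Smarcc1) and Smarcd3 was past neither. The threshold was 0.58 on the scale of log2((FPKM + 1) ratio), and 11430 named genes with a mean FPKM of at least 1 were tested against it. Over these genes 14.6% were higher and 28.8% lower. The median log2 change was -0.78 over the members and -0.21 over all genes tested, so the whole scale leaned towards MB. After centring on that median, 3 members were higher (Smarcd3 joined at a log2 change of 0.68) and 5 were lower, since Suz12 (-0.45) and Smarcc1 (-0.54) no longer passed; 21.1% of all genes were then higher and 19.4% lower. The sign of no member changed with centring. Centring within bins of like GC content instead left 3 lower, without Eed (-0.53), Smarcd1 (-0.51), Smarcd2 (-0.46) and Smarcc1 (-0.47), and centring within bins of like transcript length left 4 lower, without Eed (-0.52), Suz12 (-0.47) and Smarcd2 (-0.55). The calls of Ezh1, Ezh2, Smarca2 and Smarca4 held on each of these scales. For centring within bins, the share of all genes past the threshold was not computed, so those counts cannot be set against it.

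Among the catalytic subunits of PRC2, Ezh2 had an FPKM of 24.1 (interval 23.4 to 24.8) in MB and 8.07 (7.62 to 8.53) in MT. Its log2 change was -1.47 (-1.55 to -1.39), a level 2.98-fold lower in MT without a pseudocount, and 6.09% of the genes tested fell further. Ezh1 had an FPKM of 6.62 (6.34 to 6.90) in MB and 19.6 (19.1 to 20.0) in MT. Its log2 change was 1.43 (1.37 to 1.49), a level 2.95-fold higher in MT, and 4.63% of the genes tested rose further. These were the largest changes in either direction among the 10 members, in opposite directions within one pair of paralogs.

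The other core subunits of PRC2 were both lower in MT, by less than Ezh2. Eed, the reader of the methyl mark, had an FPKM of 22.4 (21.7 to 23.2) in MB and 12.5 in MT, with separate intervals, a log2 change of -0.80. Suz12, the scaffold, had an FPKM of 23.9 (23.3 to 24.4) in MB and 14.8 (14.3 to 15.2) in MT, a log2 change of -0.66. The summed FPKM of Ezh1 and Ezh2 was 30.7 in MB and 27.6 in MT, so the enzyme RNA fell far less in sum than either Eed or Suz12. The ratio of that sum to Eed was 1.37 in MB and 2.22 in MT, and its ratio to Suz12 was 1.29 in MB and 1.87 in MT.

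For the BAF ATPases, Smarca4 had an FPKM of 39.5 (38.9 to 40.2) in MB and 21.3 (20.8 to 21.7) in MT, a log2 change of -0.86. Smarca2 had an FPKM of 4.15 (3.81 to 4.49) in MB and 8.97 (8.47 to 9.47) in MT, a log2 change of 0.95 (0.83 to 1.07). Smarca4 remained the more abundant ATPase in MT. The summed FPKM of the ATPases was 43.7 in MB and 30.3 in MT.

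Of the BAF60 subunits, Smarcd1 had an FPKM of 12.8 (12.4 to 13.3) in MB and 6.55 (6.23 to 6.87) in MT, a log2 change of -0.87. Smarcd2 had an FPKM of 27.3 (26.5 to 28.1) in MB and 15.1 (14.5 to 15.6) in MT, a log2 change of -0.81. Smarcd3 had an FPKM of 25.4 (24.6 to 26.3) in MB and 35.6 (34.6 to 36.6) in MT, a log2 change of 0.47 (0.41 to 0.53) that stayed under the threshold. Smarcd3 was therefore the member of its family that was not lower in MT, and in MB it was already above Smarcd1 and slightly below Smarcd2. Smarcc1, the scaffold, had an FPKM of 32.4 (31.9 to 33.0) in MB and 18.9 (18.5 to 19.3) in MT, a log2 change of -0.75, close to those of Smarca4, Smarcd1 and Smarcd2.

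**Figure D2:**
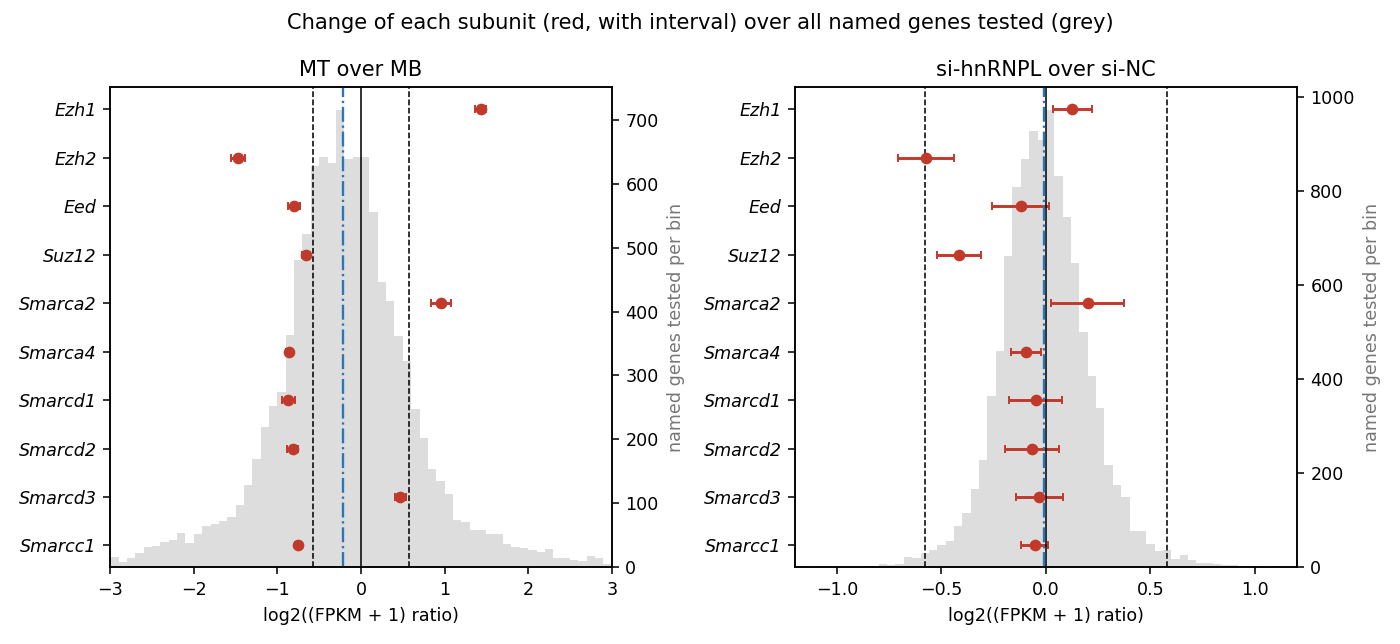
Change of each member (red points, bars for the 95% interval made from both libraries) on the scale of log2((FPKM + 1) ratio), for MT over MB (left) and si-hnRNPL over si-NC (right), over a grey histogram of all named genes tested; genes beyond the x axis are not drawn. Dashed lines mark 0.58 in both directions and the blue line marks the median of all genes: on the left Ezh1 (1.43) and Ezh2 (-1.47) lie at opposite sides, and on the right Ezh2 (-0.57) and Suz12 (-0.42) lie apart from the other members.

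The ratio of paralogs within a library does not move with the scale of that library. Without a pseudocount, the ratio of Ezh1 to Ezh2 was 0.275 (0.261 to 0.289) in MB and 2.42 (2.28 to 2.58) in MT, an 8.81-fold change. Ezh1 made up 21.6% of the summed FPKM of the pair in MB and 70.8% in MT, so the more abundant paralog was Ezh2 in MB and Ezh1 in MT. The ratio of Smarca2 to Smarca4 was 0.105 (0.0962 to 0.114) in MB and 0.421 (0.396 to 0.447) in MT, a 4.01-fold change, and the share of Smarca2 was 9.50% in MB and 29.6% in MT. The ratio of Smarcd3 to Smarcd1 was 1.99 (1.89 to 2.09) in MB and 5.44 (5.14 to 5.76) in MT, and that of Smarcd3 to Smarcd2 was 0.933 (0.891 to 0.977) in MB and 2.36 (2.26 to 2.48) in MT. These are changes of 2.74-fold and 2.53-fold, and the share of Smarcd3 in its family was 38.8% in MB and 62.2% in MT. In all 4 ratios the intervals of MB and MT were separate.

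**Figure D3:**
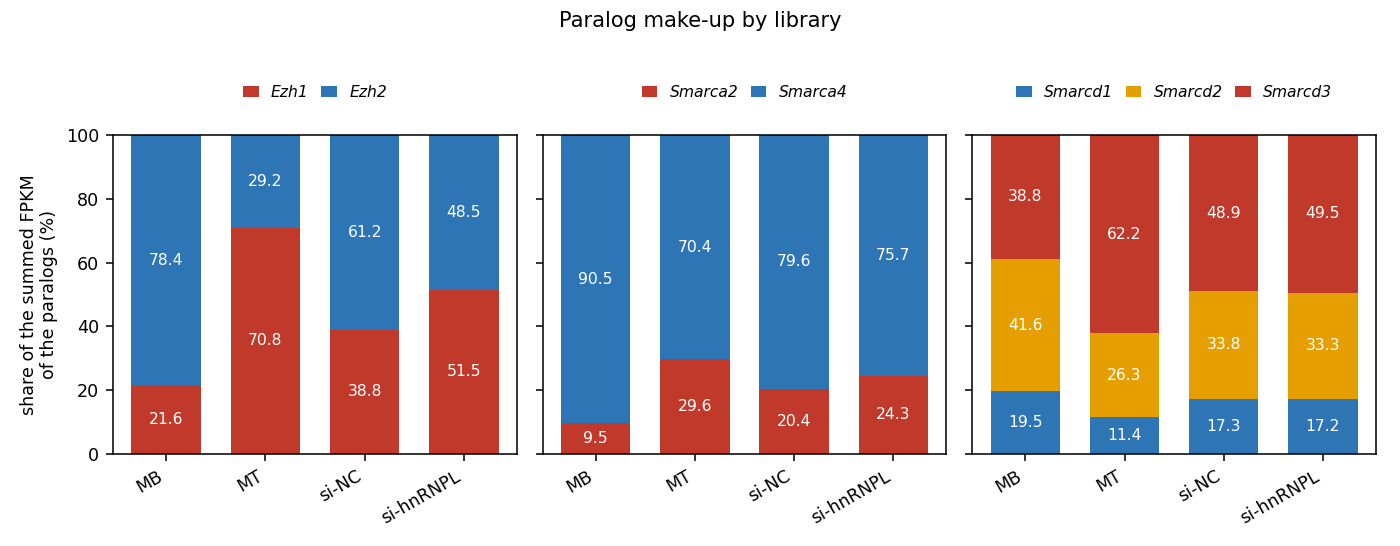
Share of each paralog (% of the summed FPKM of its family, y axis) in the 4 libraries, for Ezh1 and Ezh2 (left), Smarca2 and Smarca4 (middle) and Smarcd1, Smarcd2 and Smarcd3 (right). Ezh1 goes from 21.6% in MB to 70.8% in MT, and Smarca2 from 9.50% to 29.6%, and within the polyA libraries Ezh1 goes from 38.8% in si-NC to 51.5% in si-hnRNPL.

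Markers of dividing cells were set beside the members, of which, by sign, 7 were lower in MT and Ezh1, Smarca2 and Smarcd3 were higher. Over all genes tested the median log2 change was -0.21, so a lower value in MT was the more common sign. All 12 proliferation markers, among them Mki67, Top2a and the Mcm genes of the replicative helicase, were lower in MT, with log2 changes from -3.21 to -1.70 (median -2.27) and a summed FPKM of 1219 in MB and 241 in MT. All 11 myotube markers, among them Myog, Ckm and Acta1, were higher in MT, and their summed FPKM was 25.8 in MB and 2600 in MT. Ezh2, at -1.47, changed by less than the least changed of the proliferation markers. Of the defining markers of adipocytes, osteoblasts, neurons and macrophages, 3 of the 4 in each list were under 1 FPKM in both MB and MT. The markers with clear signal were Pparg of the adipocyte list (14.8 FPKM in MB, 3.94 in MT) and Tubb3 of the neuron list (56.4 in MB, 11.4 in MT), while the osteoblast and macrophage lists each summed to at most 1.21 FPKM. In bulk RNA, fewer cells of a kind and less RNA per cell cannot be told apart, and the part of the cell cycle markers in the change of the members was not tested.

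The rest of each complex was read from lists of its other genes. Of the 7 other PRC2 genes, 1 was higher past the threshold in MT and 2 were lower, with a median log2 change of -0.18, which is near the 14.6% higher and 28.8% lower over all genes; centred on the median of all genes, 2 were higher (Jarid2 joined at 0.70) and 2 lower. Phf19, an accessory subunit that recruits PRC2 to chromatin, had the largest change, from an FPKM of 9.71 (9.34 to 10.1) in MB to 1.37 in MT, a log2 change of -2.18. Rbbp7, a histone-binding subunit that also serves other complexes, was at 124.6 in MB and 64.0 in MT (-0.95). Phf1, a paralog of Phf19, was at 4.50 in MB and 7.47 in MT (0.62). The accessory paralogs Phf1 and Phf19 thus moved in opposite directions, with Phf1 close to the threshold. Mtf2, an accessory gene of the same list, hardly differed, at 9.35 in MB and 9.54 in MT (0.03).

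Of the 22 other BAF genes 19 were tested, and none was higher past the threshold while 7 were lower, with a median log2 change of -0.24, against 14.6% higher and 28.8% lower over all genes. Centred on the median of all genes, 3 were lower (Dpf1, Actl6a and Smarcb1). Actl6a (BAF53a), an actin-related subunit associated with dividing progenitors, was at 59.7 FPKM in MB and 27.7 in MT (log2 change -1.08). Smarcb1, a core subunit, was at 62.5 in MB and 33.5 in MT (-0.88). Dpf1 was at 3.94 in MB and 0.652 in MT (-1.58), and the others lower were Ss18 (-0.73), Bcl7c (-0.65), Arid1a (-0.64) and Brd9 (-0.64). Dpf1, Actl6a and Smarcb1 changed by at least as much as Smarca4 and Smarcc1, whereas Bcl7c, Arid1a and Brd9 lay close to the threshold.

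Among 16 genes of PRC1, the complex that reads the H3K27 mark and ubiquitinates histone H2A, none was higher past the threshold and 3 were lower, with a median log2 change of -0.31, a smaller share than the 28.8% lower over all genes. These were Cbx2, a chromodomain reader of the mark (7.67 FPKM in MB, 2.21 in MT, -1.43), Phc2 (54.4 and 23.0, -1.21) and Cbx6 (26.1 and 15.6, -0.71). Centred on the median of all genes, 2 were higher (Rnf2 at 0.78 and Phc3 at 0.76) and 2 lower, since Cbx6 no longer passed. The H3K27 demethylases passed in neither direction on the deposited scale, with log2 changes of 0.52 for Kdm6a and 0.37 for Kdm6b, but both were higher past the threshold after centring, at 0.73 and 0.58.

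**Figure D4:**
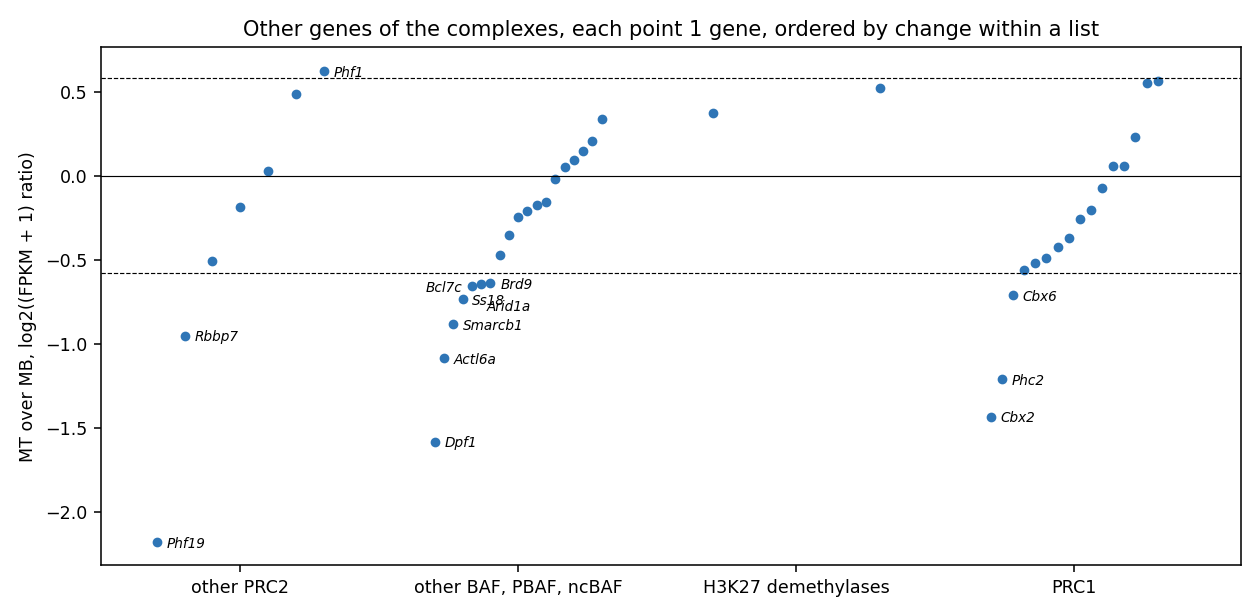
Change from MB to MT (y axis, log2((FPKM + 1) ratio)) of the other genes of the complexes, each point being 1 gene tested, ordered by change within its list, with dashed lines at 0.58 in both directions. Phf1 (0.62) is the gene above the upper line, and Phf19 (-2.18), Dpf1 (-1.58) and Cbx2 (-1.43) lie lowest in their lists.

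The total RNA tables also hold 36780 assembled transcript units without a gene symbol, and 13 of them lie inside the loci of 4 members, while 6 members hold none. Of the 13 units, 9 lie within Smarca4, 2 within Smarcd2 and 1 each within Ezh1 and Smarcd3, and only that in Ezh1 overlaps an annotated exon. All 13 had a higher FPKM in MT than in MB, as did 79.3% of all such units, whose median log2 change was 0.24, and the interval of the change held 0 for 7 of the 13. Those in Smarca4 were at 2.29 to 4.16 FPKM in MB and 3.37 to 6.67 in MT, with a median log2 change of 0.26 where Smarca4 itself was at -0.86, and the interval held 0 for 6 of the 9. The unit in Ezh1, the one over an exon, was at 1.29 FPKM in MB and 3.62 in MT, and that in Smarcd3 at 1.18 and 4.16. Since all 13 units were higher in MT, these shared the direction of their hosts, while those in Smarca4 and Smarcd2 did not.

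The second comparison, si-hnRNPL over si-NC, asks what changes in differentiating MT when hnRNPL, an RNA-binding protein that acts in splicing and transcription, is depleted. Hnrnpl itself was measured at 95.1 FPKM (92.7 to 97.5) in si-NC, against 85.9 (83.1 to 88.7) in si-hnRNPL. The intervals do not overlap, but the ratio was 0.904 and the log2 change -0.14, so at the level of polyA RNA the targeted gene was only slightly lower in the library labelled si-hnRNPL, and directions below are those of that label. The study examined the knockdown by Western blot in cells treated alike, and protein was not analysed here. Between MB and MT, Hnrnpl was at 111 and 63.0 FPKM (log2 change -0.81).

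None of the 10 members passed the threshold of 0.58 between si-NC and si-hnRNPL, where 1.36% of the 11233 named genes tested were higher and 0.864% lower. The median log2 change was -0.06 over the members and -0.010 over all genes. The members nearest to the threshold were Ezh2 and Suz12, both of PRC2 and both lower in si-hnRNPL. The intervals of the 2 libraries were separate for these 2 members, against 33.8% of all genes tested, and the interval of the log2 change left out 0 for 5 members, against 47.4% of all genes, so neither count sets the members apart.

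Ezh2 stood at 22.5 FPKM (21.2 to 23.9) in si-NC, against 14.8 (13.7 to 16.0) in si-hnRNPL. Its log2 change was -0.57 (-0.71 to -0.44), just inside the threshold, and 0.908% of the genes tested fell further. Without a pseudocount the level was 1.52-fold lower, and with a pseudocount of 0.1 Ezh2 was past the threshold, where 1.70% of all genes were lower. Suz12 stood at 27.1 FPKM (25.8 to 28.4) in si-NC, against 20.1 (18.9 to 21.3) in si-hnRNPL, a log2 change of -0.42 (-0.52 to -0.31) that 2.65% of the genes tested fell beyond. Eed was at 16.9 (15.8 to 17.9) in si-NC, against 15.4 (14.2 to 16.6) in si-hnRNPL, a log2 change of -0.12 (-0.26 to 0.01), so its libraries overlapped. Changes in this pair of libraries followed transcript GC content across genes (Spearman rho 0.42 over 9957 protein-coding genes, which share these libraries and are not replicates) and transcript length (rho -0.45). Relative to genes binned by like GC content, Ezh2 (GC 44.9%) was at -0.49 and Suz12 (GC 41.6%) at -0.27, and relative to genes of like length they were at -0.57 and -0.34.

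Ezh1 stood at 14.3 FPKM (13.7 to 14.9) in si-NC, against 15.7 (14.9 to 16.5) in si-hnRNPL, a log2 change of 0.13 (0.03 to 0.22). The ratio of Ezh1 to Ezh2 was 0.635 (0.590 to 0.684) in si-NC, against 1.06 (0.966 to 1.17) in si-hnRNPL, a 1.67-fold change. The share of Ezh1 in the pair went from 38.8% (37.1 to 40.6) to 51.5% (49.1 to 53.8), so Ezh2 was the more abundant paralog in si-NC while in si-hnRNPL the ratio could not be told from 1.

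The BAF members differed by little. Smarca2 was at 8.52 (7.76 to 9.27) in si-NC, against 9.94 (8.94 to 10.9) in si-hnRNPL, a log2 change of 0.20 (0.02 to 0.38), and Smarca4 was at 33.2 (32.0 to 34.3) and 31.0 (29.8 to 32.1), a log2 change of -0.096. The ratio of Smarca2 to Smarca4 was 0.257 (0.233 to 0.282) in si-NC, against 0.321 (0.287 to 0.356) in si-hnRNPL, a 1.25-fold change with separate intervals. Smarcd1 was at 10.9 in si-NC and 10.5 in si-hnRNPL, Smarcd2 at 21.3 and 20.3, Smarcd3 at 30.9 and 30.2, and Smarcc1 at 23.4 and 22.4. Their log2 changes lay between -0.067 and -0.031, every interval held 0, and the ratios of Smarcd3 to Smarcd1 (2.83 and 2.87) and to Smarcd2 (1.45 and 1.49) overlapped between the libraries. The sign of the small change was lost for Smarcc1 relative to genes of like GC content, and for Smarca4 and Smarcc1 relative to genes of like length.

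Proliferation and myotube markers also differed in this comparison. All 12 proliferation markers were lower in si-hnRNPL, with log2 changes from -0.64 to -0.31 (median -0.54), and 4 of them passed the threshold (Mki67, Top2a, Mcm3 and Mcm5), with a summed FPKM of 573 in si-NC and 409 in si-hnRNPL. Ezh2 (-0.57) lay within their range, as did Suz12 (-0.42). Of the 10 myotube markers tested, 4 were higher past the threshold (Acta1, Ckm, Mylpf and Tnnc1) and 6 passed in neither direction. Over all genes 1.36% were higher and 0.864% lower. The log2 changes of the myotube markers ran from -0.003 to 0.71 (median 0.50), and Myh8 (-0.003) and Mb (0.05) hardly differed. Their summed FPKM, in which Acta1, Mylpf and Tnnc1 had the largest values, was 3618 in si-NC and 5479 in si-hnRNPL. Whether these marker differences carry that of Ezh2 was not tested. None of the other genes of PRC2 (7 tested), BAF (17 tested) and PRC1 (16 tested), nor Kdm6a or Kdm6b, passed the threshold in either direction, and Phf19 was at 3.01 in si-NC and 2.18 in si-hnRNPL (log2 change -0.33) and Phf1 at 9.91 and 13.2 (0.38).

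**Figure D5:**
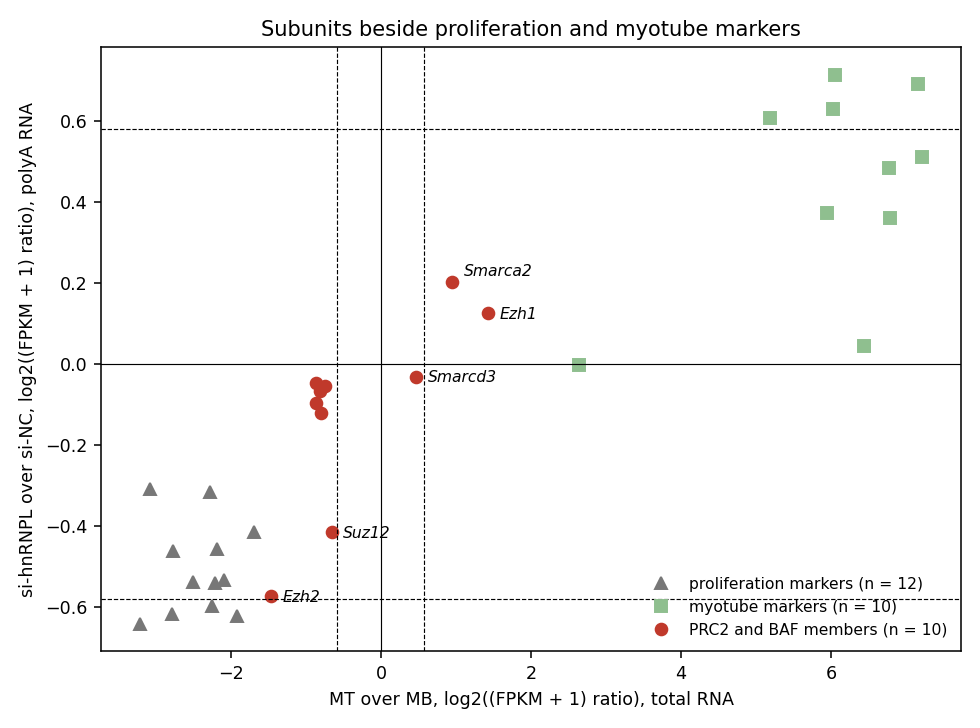
Change from MB to MT in total RNA (x axis) against change from si-NC to si-hnRNPL in polyA RNA (y axis), both as log2((FPKM + 1) ratio), for the members (red), 12 proliferation markers (grey) and 10 myotube markers (green), with dashed lines at 0.58 in both directions. Ezh2, at -1.47 and -0.57, is the member nearest to the proliferation markers, and the axes differ in scale.

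The polyA libraries were made from MT at DM 48 h and the total RNA from MT at the later time of the labels, by other library kits, so levels can only be set side by side across them. The share of Ezh1 was 21.6% in MB, 38.8% in si-NC, 51.5% in si-hnRNPL and 70.8% in MT. The share of Smarca2 was 9.50%, 20.4%, 24.3% and 29.6% in the same libraries, and that of Smarcd3 was 38.8%, 48.9%, 49.5% and 62.2%.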

How the data were processed

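RNA-seq was analysed from 4 C2C12 libraries, 1 per condition. Per the methods, the authors trimmed adapters, discarded reads under 36 bp, aligned what remained with TopHat 2.0.13 against mm9, and estimated abundance with Cufflinks 2.1.1. The deposited values are FPKM per gene with a 95% interval. This interval covers counting and assignment within a library and no biological or preparation error, and whether the cultures were separate is not given in the sources used here. FPKM is relative to the fragments of each library, so a gain of very abundant RNA lowers all other values.

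From these FPKM, log2((FPKM + 1) ratio) was computed with Python 3.11.15 and pandas 2.3.3, and an absolute value of at least 0.58 was called, after the 1.5-fold rule of the study. The added 1 makes this stricter than a 1.5-fold ratio of FPKM, which Ezh2 exceeded between si-NC and si-hnRNPL (1.52-fold lower). Named genes with a mean FPKM of at least 1 over both libraries and a Cufflinks status of OK were tested. Half-widths were combined in quadrature. The fragments implied by an interval are N = (2 x FPKM / (upper bound - FPKM)) squared. Genes named are the 10 members, Hnrnpl, and other PRC2, BAF and PRC1 genes past 0.58. Proliferation and myotube markers are given by counts with examples. Kdm6a, Kdm6b, Mtf2, Pparg and Tubb3, outside this rule, were named after their values were seen. Jarid2, Rnf2 and Phc3 are outside the rule as well, since they passed 0.58 only after centring on the median. Members and lists were chosen with earlier results of these data known. GENCODE vM1 gave transcript length and GC content, RefSeq on GRCm38.p6 gave promoters, and coordinates were not converted between builds.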

Additional observations from a re-analysis of the deposited data

How the results depend on the processing

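Signs and calls were recomputed with other pseudocounts, thresholds, filters and centrings. A change of pseudocount cannot alter a sign, so only the centrings could do so. No member changed sign in MT over MB with centring on the median, within GC bins or within length bins. In si-hnRNPL over si-NC, 1 did with GC centring and 2 with length centring. Over summary values, 56 stayed within their limits and 18 moved. Some of these could not move, since all members passed the filter on low values and dropping it changed no call of theirs. A count could also differ within its limits, as with 7 members lower against 5 after centring on the median. For MT over MB, a log2 threshold of 1 left 1 member higher (Ezh1) and 1 lower (Ezh2), and 0 other PRC2 and BAF genes higher and 3 lower. The share of all genes past a threshold of 1 was not computed, so these counts cannot be set against it. Centring on the median of all genes gave a median of -0.57 for the members, and 2 other genes higher and 5 lower. Pseudocounts of 0.1 and 0.01 each gave 2 other genes higher, and in si-hnRNPL over si-NC each called 1 member lower, Ezh2. With these pseudocounts the change of the log2 ratio from MB to MT was 3.11 and 3.14 for Ezh1 to Ezh2, and 1.98 and 2.00 for Smarca2 to Smarca4; it was 1.45 with 0.01 for Smarcd3 to Smarcd1. A smaller pseudocount shrinks a ratio less. Centring within 10 bins of GC content or of transcript length, both chosen after seeing the data, left 3 and 4 members lower. No share of all genes was computed for these bins. No paired analysis was possible because each condition is 1 library, and for the same reason no replicate could be left out. Depth limits the polyA values: the interval of Smarca2 in si-hnRNPL rests on 394 effective fragments.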
